A study of Homo sapiens with 36 samples.

Results

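The data were 12 of the 36 RNA-seq libraries of a study of platinum resistance in A2780, a cell line of human ovarian cancer. These 12 libraries came from A2780 cis cells, the platinum-resistant derivative that was obtained by chronic cisplatin exposure. They were chosen by their labels: cis cells in complete medium (cis), in complete medium with carboplatin (cis carbo), in medium lacking serine and glycine (cis -SG) and in that medium with carboplatin (cis -SG carbo), with 3 libraries in each of the 4 conditions. The question put to them was whether the carboplatin response of each gene was the same in both media. The interaction of a gene is its log2 carboplatin response without serine and glycine minus its log2 carboplatin response in complete medium. A gene with an interaction of 0 changed as the sum of both single treatments on the log2 scale would have it. A gene is called higher or lower when its interaction was above or below 0 with an adjusted p-value under 0.05.

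All 4 groups shared the cisplatin-selected background, and the deprived cells were kept in home-made RPMI with dialyzed serum. The labels give the carboplatin dose as 6 M, in which the prefix of the unit appears to be lost. Within a condition the 3 libraries are technical replicates by the study's legends, and the p-values therefore measure the spread between libraries and not between independent cultures. The other libraries came from the parental wt cells and from cis SSP cells, which grew out of cis cells under deprivation, with 12 libraries each.

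Carboplatin forms platinum crosslinks in DNA. The damage stabilises p53, which induces cell-cycle inhibitors and apoptosis genes, and it delays cells before mitosis. Serine feeds the folate cycle with one-carbon units for purine and thymidylate synthesis and is a source of glycine and glutathione. A lack of amino acids is read by the kinase GCN2, and the transcription factor ATF4 then induces enzymes of amino acid synthesis, transporters and stress genes.

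Each library held between 13074937 and 18768404 counts on genes. Libraries 23 and 24, both of cis -SG carbo, stood apart. Counts on no annotated feature made up 17.9% and 14.9% of their totals, against 8.53% in library 22 of the same condition and 6.14% to 8.66% in the other 9 libraries. They also had more genes with at least 1 count, 25669 and 25363, against 20785 to 23226 in the other 10, and a larger share of counts on long noncoding RNAs, 1.27% and 1.16% against at most 0.991%. Results are therefore given with and without both of them, and without them library 22 alone stood for its condition. Of 14 markers of ovarian carcinoma and Mullerian epithelium, 10 had at most 3 counts in any cis library and did not pass the filter on low counts. PAX8, which marks Mullerian epithelium, had at most 3 counts and CLDN3, a tight junction gene, had 0 in all 12. KRT18, a keratin of simple epithelia, was at 16.1 to 44.04 CPM (counts scaled to a common library size), while COL3A1, a fibrillar collagen of mesenchymal cells, was at 644.9 to 3704 CPM. The label of an ovarian carcinoma line therefore rested on the study, since the epithelial markers were largely absent. No marker of leukocytes or endothelium passed the filter, and none exceeded 9 counts in a library.

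Of 14797 genes tested, 1787 (12.1%) were called for the interaction, 874 (5.91%) higher and 913 (6.17%) lower. The list counts below are to be read beside these shares, and a list near them does not differ from the genes as a whole. Most of these interactions were small, with a median absolute value of 0.29 on the log2 scale. An absolute value of at least 1 was reached by 69 genes, 55 of them higher and 14 lower. Without libraries 23 and 24, 579 genes (3.77%) were higher and 761 (4.95%) lower among 15360 tested. Of the 1787 genes, 1035 were called there too, and the interaction had the same sign in that fit for all 1787; both fits share the other 10 libraries. A single fit over the 36 libraries, whose spread is set also by wt and cis SSP libraries, left 112 calls. Leaving out library 22 raised the number to 3594. Scaling by total counts without TMM, edgeR's trimmed mean of log ratios, turned the split into 1131 higher and 679 lower. Leaving out 1 library mostly moved it the other way: the higher genes numbered 432 without library 18, 447 without 21, 480 without 20, 487 without 13, 491 without 24 and 565 without 19, beside 869 to 1167 lower ones.

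Carboplatin alone moved 2211 genes in complete medium, 888 up (6.0%) and 1323 down (8.94%). Without serine and glycine it moved 4071, 2013 up (13.6%) and 2058 down (13.9%), and 1925 when libraries 23 and 24 were left out. Deprivation alone moved far more genes, 4969 up (33.6%) and 5596 down (37.8%). The carboplatin responses in the 2 media had a Pearson r of 0.33 across the 11278 genes that averaged 50 counts or more, and 0.24 without libraries 23 and 24. Genes are not independent replicates, and no p-value is attached to these correlations. Among the 874 genes with a higher interaction, 493 rose with carboplatin in the deprived medium alone, 221 fell in complete medium alone, and 82 fell in complete medium and rose in the deprived one. Among the 913 with a lower interaction, 463 fell with carboplatin in the deprived medium alone, 205 rose in complete medium alone, 84 rose in complete medium and fell in the deprived one, and 45 rose in both but less in the deprived one. "Alone" here means past the threshold in that medium and not in the other.

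**Figure D1:**
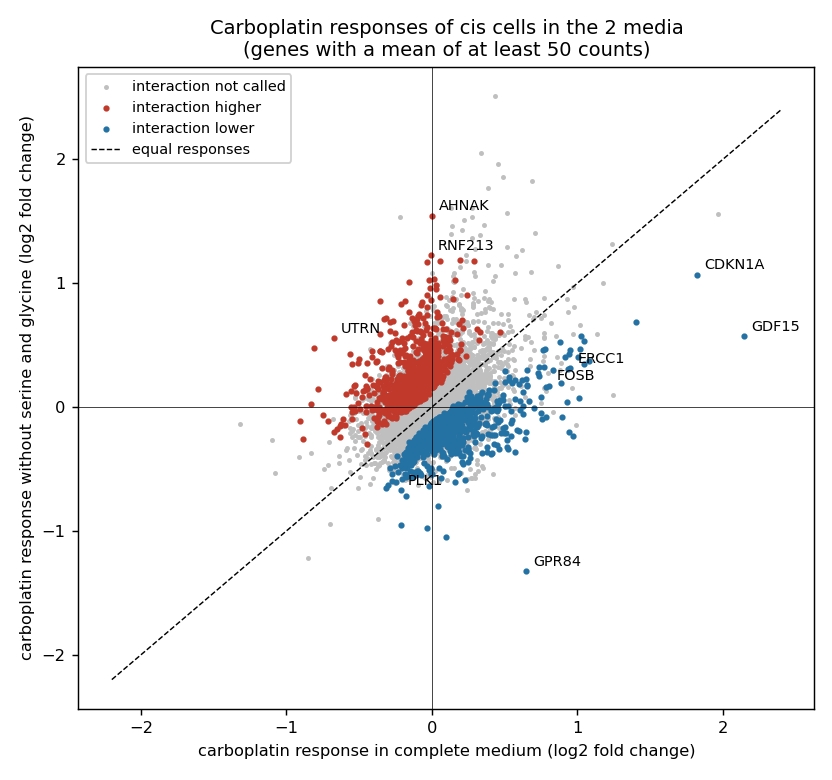
Log2 carboplatin response of each gene in complete medium (horizontal axis) and without serine and glycine (vertical axis), for the 11278 genes with a mean of at least 50 counts in cis cells. Called genes lie above (red) or below (blue) the dashed line of equal responses, with GDF15 and CDKN1A at the far right below it and AHNAK above it.

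The p53 targets rose with carboplatin in both media, but less in the deprived one. Of 32 tested, 28 rose in complete medium and 25 in the deprived medium, none fell in either, and the median response was 0.50 and 0.31 on the log2 scale. Over all genes 6.0% and 13.6% rose. The interaction was lower for 16 and higher for 1, with a median of -0.17 against 0.01 over all genes tested and 6.17% of all genes called lower. Without libraries 23 and 24 it was lower for 14, with a median of -0.16. With deprivation alone 20 of the 32 rose and 9 fell, beside 33.6% and 37.8% of all genes.

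CDKN1A (ENSG00000124762; GRCh37 chromosome 6, 36644237 to 36655114) encodes p21, an inhibitor of cyclin-dependent kinases. It was at 92.8, 94.1 and 93.9 CPM in the 3 cis libraries, 327.8, 333.6 and 331.2 in cis carbo, 158.1, 152.6 and 153.2 in cis -SG, and 346.8, 304.3 and 322.5 in cis -SG carbo. Both carboplatin groups thus lay in the same range, although the groups without the drug differed. The additive expectation for the combination was 546.6 CPM. Carboplatin raised CDKN1A 3.53-fold in complete medium and 2.1-fold in the deprived medium, and the interaction was -0.75 (standard error 0.0519, edgeR adjusted p = 1.93e-10). GDF15, which encodes a secreted stress cytokine of the TGF-beta family, had the most negative interaction of the list. It stood at 50.3, 47.3 and 43.2 CPM in cis, 196.3, 219.3 and 205.7 in cis carbo, 234.8, 242.0 and 235.1 in cis -SG, and 410.8, 294.9 and 351.7 in cis -SG carbo. The combination was the highest group, without overlap, and still at 0.337 of the additive expectation of 1047 CPM. Carboplatin raised GDF15 4.42-fold in complete medium and 1.49-fold in the deprived one, with an interaction of -1.57 (standard error 0.167, edgeR adjusted p = 0.000549).

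Smaller values of the same sign were measured for PMAIP1 and GADD45A. Deprivation alone raised GDF15, PMAIP1 and GADD45A by 2.34, 1.49 and 1.77 on the log2 scale. The part of p53 in the values of these genes was not tested. PMAIP1, which encodes the BH3-only protein NOXA, was at 16.2 to 17.8 CPM in cis, 22.9 to 26.5 in cis carbo, 45.7 to 48.9 in cis -SG and 46.2 to 46.9 in cis -SG carbo. It rose 1.45-fold with carboplatin in complete medium, and the groups overlapped in the deprived medium, where its log2 response was -0.03 (edgeR adjusted p = 0.684). Its interaction was -0.57 (edgeR adjusted p = 4.1e-05). GADD45A, a growth arrest gene, rose 1.78-fold and 1.23-fold in the 2 media, with an interaction of -0.53 (edgeR adjusted p = 0.000275). APAF1, the scaffold of the apoptosome, was the 1 member with a higher interaction, at 0.44 (edgeR adjusted p = 0.00248), and is named here after its value was seen.

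ERCC1, a subunit of the nuclease that incises DNA beside platinum adducts in nucleotide excision repair, followed the same pattern. It was at 89.7, 90.3 and 95.4 CPM in cis, 176.2, 176.0 and 180.0 in cis carbo, 171.0, 172.2 and 179.7 in cis -SG, and 219.4, 211.9 and 218.6 in cis -SG carbo. The 2 groups with a single treatment overlapped, and the combination stood above both but short of the additive expectation of 336.8 CPM. Its interaction was -0.64 (standard error 0.0469, edgeR adjusted p = 5.08e-10). The ERCC1 locus overlaps FOSB on the other strand, and the strand setting of the counting is not given in the sources used here, so the counts of both genes are less certain. Of the 18 excision repair and translesion genes, 2 were lower, ERCC1 and ERCC3 (-0.21), and 2 higher, the translesion polymerase genes REV3L (0.37) and POLK (0.25). Neither REV3L nor POLK was called without libraries 23 and 24 (edgeR adjusted p = 0.186 and 0.173). Of the 31 Fanconi anemia and homologous recombination genes 1 was lower, FANCI at -0.17, and 1 higher, SLX4 at 0.32, which was not called without libraries 23 and 24 (edgeR adjusted p = 0.472). Without them 3 of the 31 were lower and none higher.

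**Figure D2:**
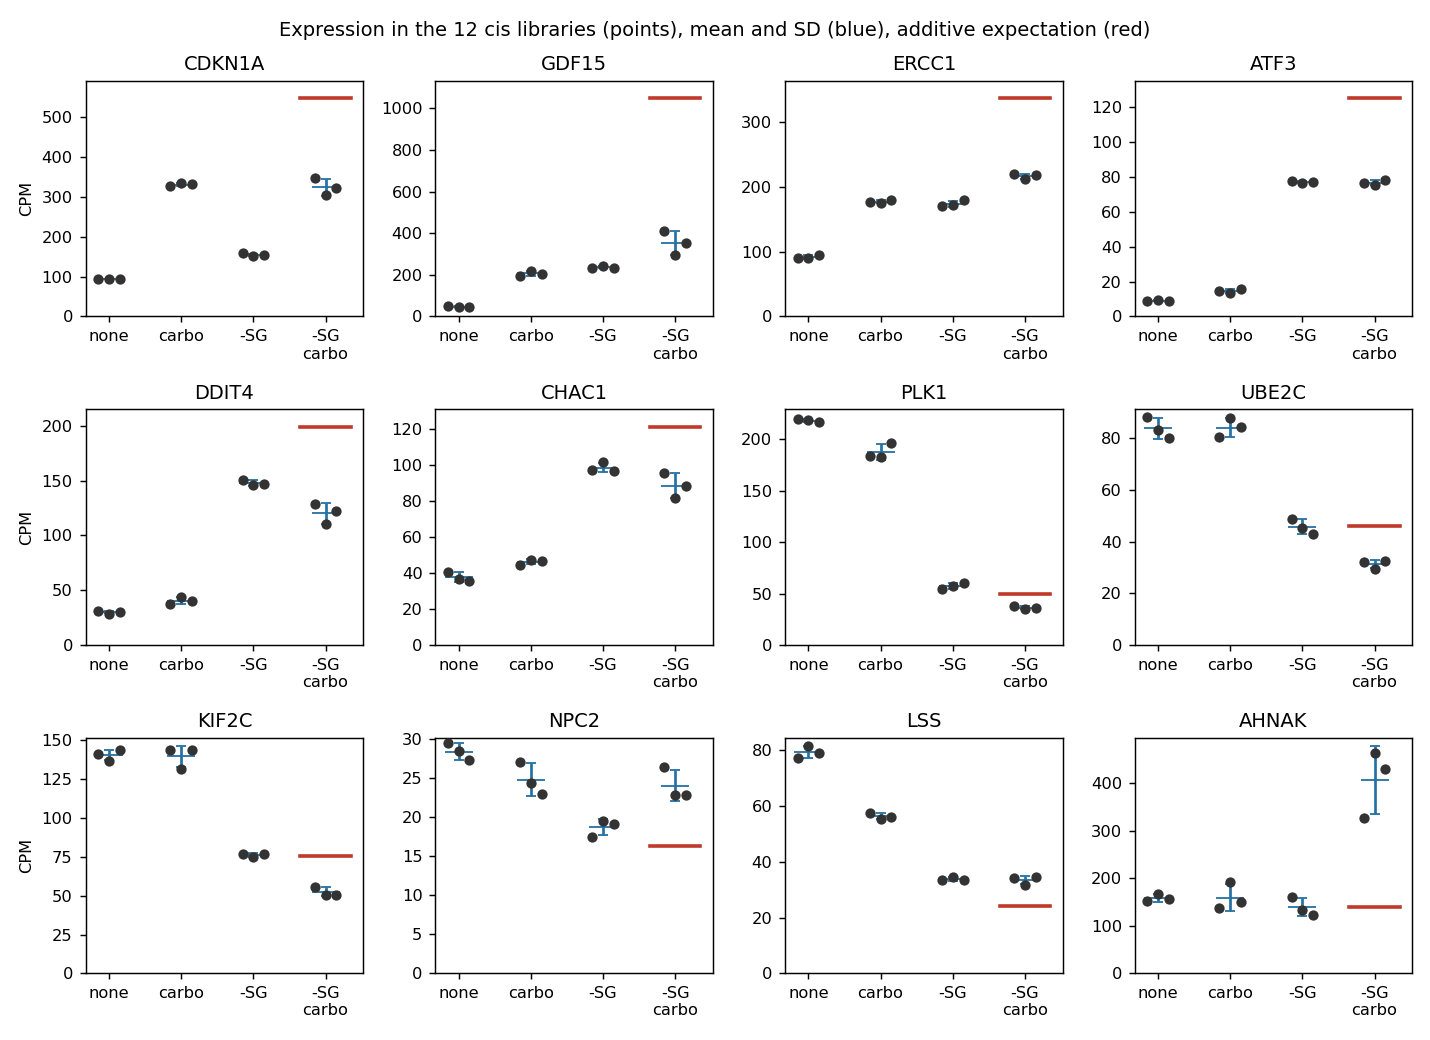
CPM of 12 genes in each of the 3 libraries of the 4 conditions (points), with the mean and SD (blue) and the additive expectation for the combination (red), each on an axis from 0. CDKN1A, GDF15, ERCC1, ATF3, DDIT4, CHAC1, PLK1, UBE2C and KIF2C ended below the red line with both treatments, and NPC2, LSS and AHNAK above it.

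ATF4 and its targets, the amino acid response, mostly rose with deprivation alone, and more of them fell than rose with carboplatin in the deprived medium. Of 41 tested, 37 rose with deprivation alone and none fell, with a median of 0.70 on the log2 scale. Over all genes 33.6% rose and 37.8% fell. Carboplatin in complete medium raised 8 and lowered 10, beside 6.0% and 8.94% of all genes. In the deprived medium it raised 2 and lowered 25, beside 13.6% and 13.9%. The interaction was lower for 16 and higher for 1, with a median of -0.13, and 35 of the 41 values were below 0. Without libraries 23 and 24, 14 were lower and the median was -0.08. Without library 22 alone 29 were lower. The 1 higher member was CTH, the cystathionine gamma-lyase of cysteine synthesis, at 0.31 (edgeR adjusted p = 0.0056), and it is named after its value was seen.

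ATF3, a stress-induced repressor and activator of transcription, was at 8.85, 9.27 and 9.02 CPM in cis, 14.8, 13.5 and 15.7 in cis carbo, 77.7, 76.1 and 77.0 in cis -SG, and 76.6, 75.1 and 78.0 in cis -SG carbo. Carboplatin raised it 1.63-fold in complete medium, while the deprived groups with and without the drug overlapped fully. Its interaction was -0.71 (standard error 0.0873, edgeR adjusted p = 3.92e-06). DDIT4, an inhibitor of mTORC1, was at 31.1, 28.6 and 30.4 CPM in cis, 37.2, 43.8 and 40.2 in cis carbo, 150.8, 146.0 and 146.9 in cis -SG, and 128.9, 110.2 and 121.9 in cis -SG carbo. It rose 1.34-fold in complete medium and fell to 0.814 of its level in the deprived one, without overlap in either medium. The interaction of DDIT4 was -0.72 (standard error 0.0837, edgeR adjusted p = 9.53e-06). CHAC1, which degrades glutathione, rose 1.23-fold and fell to 0.899, with an interaction of -0.45 (edgeR adjusted p = 0.000317). DDIT3, which encodes the stress factor CHOP, had an interaction of -0.40 (edgeR adjusted p = 0.000296), with 34.2 to 34.9 CPM in cis carbo and 65.6 to 65.9 in cis -SG carbo against expected 87.1.

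The ATF4 binding element pairs a C/EBP with an ATF part and is often written TGATGNAA. It was searched on both strands in the RefSeq promoter windows of GRCh38.p14, 300 bases of which the last 50 lie after the start. Of the 35 ATF4 list genes with a window, 15 (42.9%) held it, against 4.46% of all 27305 gene symbols with a window. The list was chosen as ATF4 targets, so a high share follows from that choice and says nothing about the interaction. Called and uncalled members were not compared. The stretches of 30 bases below come from 2 of the 4 called list genes with the most negative interactions, with the match in capitals and the gene's own strand shown. They are a description of the letters and were not tested as sites.

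CHAC1, chr15:40953251-40953280, plus strand, element on the other strand: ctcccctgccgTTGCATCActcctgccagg

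ATF3, chr1:212565205-212565234, plus strand: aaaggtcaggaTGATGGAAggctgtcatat

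Mitosis and G2/M genes formed the list with the largest share of calls. Of 39 tested, 27 had a lower interaction and none a higher one, with a median of -0.28, and 36 values were below 0. Without libraries 23 and 24, 21 were lower and the median was -0.26. Carboplatin lowered 28 of them in complete medium and 37 in the deprived medium, with a median response of -0.17 and -0.45. Over all genes 8.94% and 13.9% fell. Deprivation alone lowered all 39, by a median of -1.26, beside 37.8% of all genes. The larger proportional fall was thus measured from a lower level. In bulk RNA a smaller share of cells in G2 and mitosis and less RNA of these genes per cell cannot be told apart.

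PLK1, the polo-like kinase of mitotic entry, was at 219.6, 218.6 and 216.7 CPM in cis, 183.9, 183.2 and 196.8 in cis carbo, 54.5, 57.7 and 60.4 in cis -SG, and 38.0, 35.1 and 35.5 in cis -SG carbo. The 4 groups did not overlap, and the combination lay below the additive expectation of 49.6 CPM. Carboplatin left 0.861 of the level in complete medium and 0.629 in the deprived medium, an interaction of -0.45 (standard error 0.0595, edgeR adjusted p = 8.46e-06). UBE2C, the ubiquitin-conjugating enzyme of the anaphase-promoting complex, was at 88.1, 83.2 and 80.1 CPM in cis and 80.4, 87.6 and 84.3 in cis carbo. In the deprived medium it was at 48.7, 45.4 and 43.0 CPM without and 32.03, 29.6 and 32.6 with carboplatin. It thus fell with the drug in the deprived medium alone, and its interaction was -0.54 (standard error 0.0743, edgeR adjusted p = 1.43e-05). The kinesin gene KIF2C behaved alike, with 131.6 to 143.9 CPM in both groups of complete medium, 74.7 to 77.0 in cis -SG, 50.7 to 55.8 in cis -SG carbo and an interaction of -0.53 (edgeR adjusted p = 9.59e-07). CDCA3, a trigger of mitotic entry, had the most negative value of the list, -0.74 (edgeR adjusted p = 0.0183), with 1.33 to 2.22 CPM in cis -SG carbo, and it overlaps GNB3.

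Many G2/M promoters carry a cell cycle homology region, TTTGAA, downstream of CCAAT boxes. In the same promoter windows, both strands searched, TTTGAA was present in 24 of the 34 list genes with a window (70.6%), against 18.2% of all symbols, and CCAAT in 28 (82.4%), against 39.7%. This list too was chosen by function, so these shares say nothing about the interaction, and called and uncalled members were not compared. The PLK1 promoter held both within 73 bases before the start, as the stretches below show, with the match in capitals.

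PLK1, chr16:23678804-23678833, plus strand: aaatccccgcggCCAATcagtggcgcgcag

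PLK1, chr16:23678848-23678877, plus strand: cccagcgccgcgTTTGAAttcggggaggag

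DNA replication and S phase genes also had lower calls and no higher ones. Of 41 tested, 9 were lower and none higher, with a median of -0.08, 5 were lower and 2 higher without libraries 23 and 24, and 19 were lower without library 22. Carboplatin raised 2 of the 41 and lowered 21 in complete medium, and raised 1 and lowered 30 in the deprived one. Over all genes 8.94% and 13.9% fell. Deprivation alone raised 1 and lowered 40, beside 33.6% and 37.8% of all genes. RRM2, the small subunit of ribonucleotide reductase, was at 265.7 to 272.2 CPM in cis, 301.5 to 311.3 in cis carbo, 142.8 to 147.8 in cis -SG and 121.5 to 125.3 in cis -SG carbo. It was 1 of the 2 members that rose with carboplatin in complete medium. RRM2 fell in the deprived medium, and its interaction was -0.41 (standard error 0.0423, edgeR adjusted p = 2.42e-07). The other 3 most negative members were GINS3 (-0.38), ORC6 (-0.28) and CDC6 (-0.25), which act in origin licensing and the replicative helicase. The 12 tested histone genes of the replication-dependent clusters had no call for the interaction. Of them 6 rose with carboplatin in each medium, beside 6.0% of all genes in complete and 13.6% in deprived medium.

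**Figure D3:**
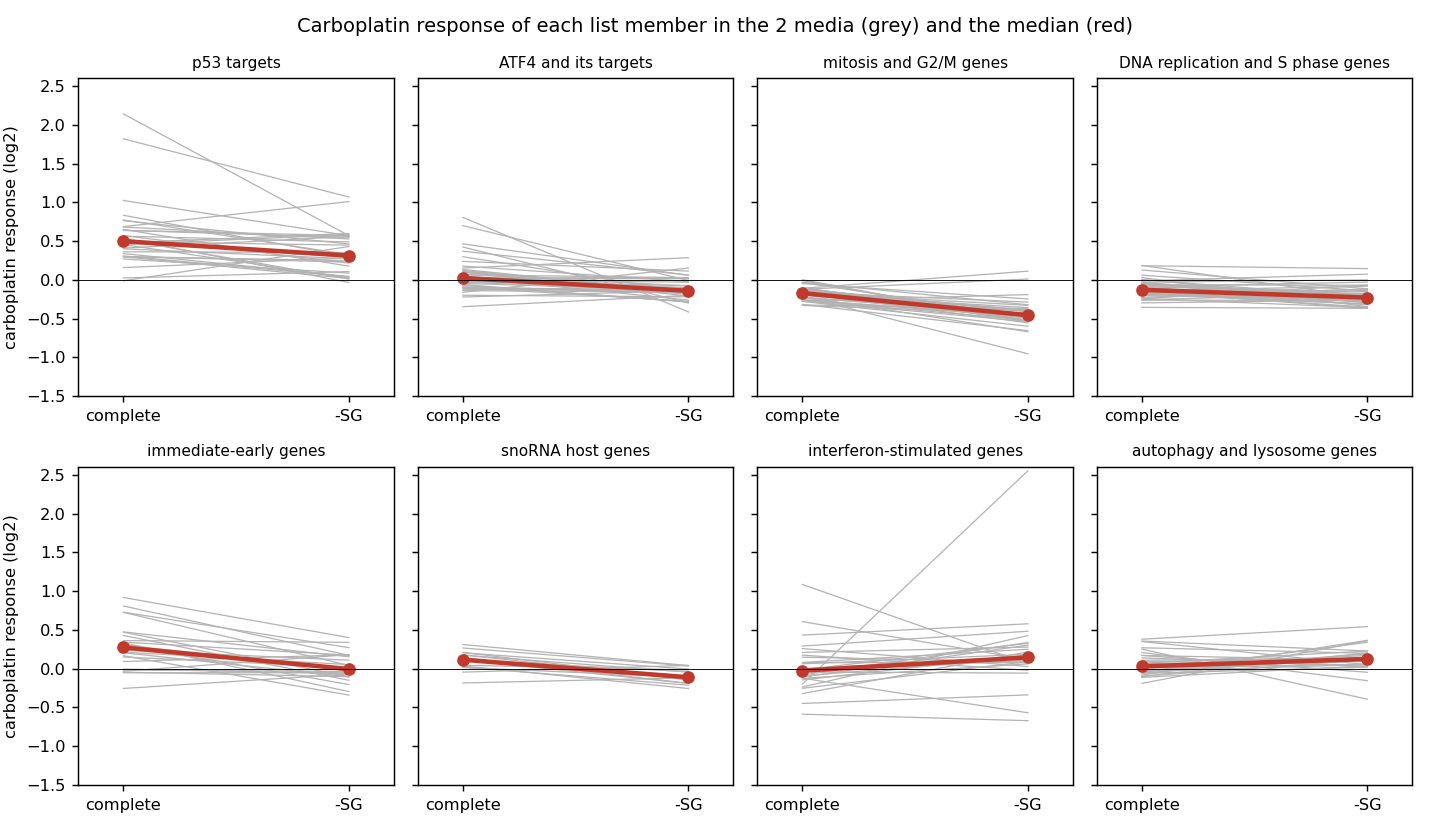
Log2 carboplatin response of each list member in complete medium (left) and without serine and glycine (right), joined by a grey line, with the list median in red. The red line ran from 0.50 to 0.31 for p53 targets, from 0.03 to -0.14 for ATF4 and its targets and from -0.17 to -0.45 for mitosis and G2/M genes, and went up for interferon-stimulated genes and for autophagy and lysosome genes.

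Immediate-early genes, the first genes switched on by growth factors and stress, rose with carboplatin in more cases in complete medium. Of 24 tested, 11 rose and 1 fell there, against 6 and 2 in the deprived medium. Over all genes 6.0% rose and 8.94% fell in complete medium, and 13.6% rose and 13.9% fell in the deprived one. The interaction was lower for 7 and higher for none, with a median of -0.24, and lower for 6 without libraries 23 and 24 and 13 without library 22. KLF10, a transforming growth factor response gene, was at 101.8, 101.4 and 106.2 CPM in cis, 136.2, 138.0 and 142.0 in cis carbo, 197.7, 192.0 and 195.8 in cis -SG, and 182.4, 170.5 and 174.7 in cis -SG carbo. It rose 1.34-fold in one medium and fell to 0.901 in the other, with no overlap, and its interaction was -0.58 (standard error 0.0478, edgeR adjusted p = 6.38e-09). The AP-1 gene FOSB, which overlaps ERCC1, had an interaction of -0.64, the zinc finger gene EGR2 -0.57 and the AP-1 gene FOSL1 -0.52. Of 14 NF-kB targets, 2 were lower and none higher. NFKB1, a subunit gene of NF-kB itself, had -0.26 and was not called without libraries 23 and 24 (edgeR adjusted p = 0.105). LIF, a cytokine of the interleukin-6 family, rose 2.07-fold with carboplatin in complete medium and 1.27-fold in the deprived one, with an interaction of -0.70 (edgeR adjusted p = 5.74e-06).

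The 15 tested snoRNA host genes, which carry small nucleolar RNAs in their introns, went from a median response above 0 to one below 0. Carboplatin raised 6 and lowered 1 in complete medium, beside 6.0% and 8.94% of all genes. It raised none and lowered 6 in the deprived one, beside 13.6% and 13.9%. The interaction was lower for 7 and higher for none, with a median of -0.23, and lower for 8 without libraries 23 and 24 and 12 without library 22. ZFAS1 was at 92.7, 92.8 and 93.1 CPM in cis, 109.0, 104.9 and 101.4 in cis carbo, 208.6, 209.7 and 212.3 in cis -SG, and 190.9, 191.5 and 188.9 in cis -SG carbo. Its 4 groups did not overlap, and its interaction was -0.32 (standard error 0.0458, edgeR adjusted p = 2.48e-05). SNHG6 had -0.36 and SNHG16 -0.31. ER chaperones and unfolded protein response genes had 6 lower and 1 higher of 20, with a median of -0.12, and 4 lower and 2 higher without libraries 23 and 24. HSPA5, the chaperone BiP, was at 2089 to 2141 CPM in cis, 2427 to 2513 in cis carbo, 3134 to 3249 in cis -SG and 2664 to 3008 in cis -SG carbo, and its interaction was -0.40 (edgeR adjusted p = 1.94e-06). The 1 higher member was EDEM1, a factor of ER-associated degradation, at 0.26.

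**Figure D4:**
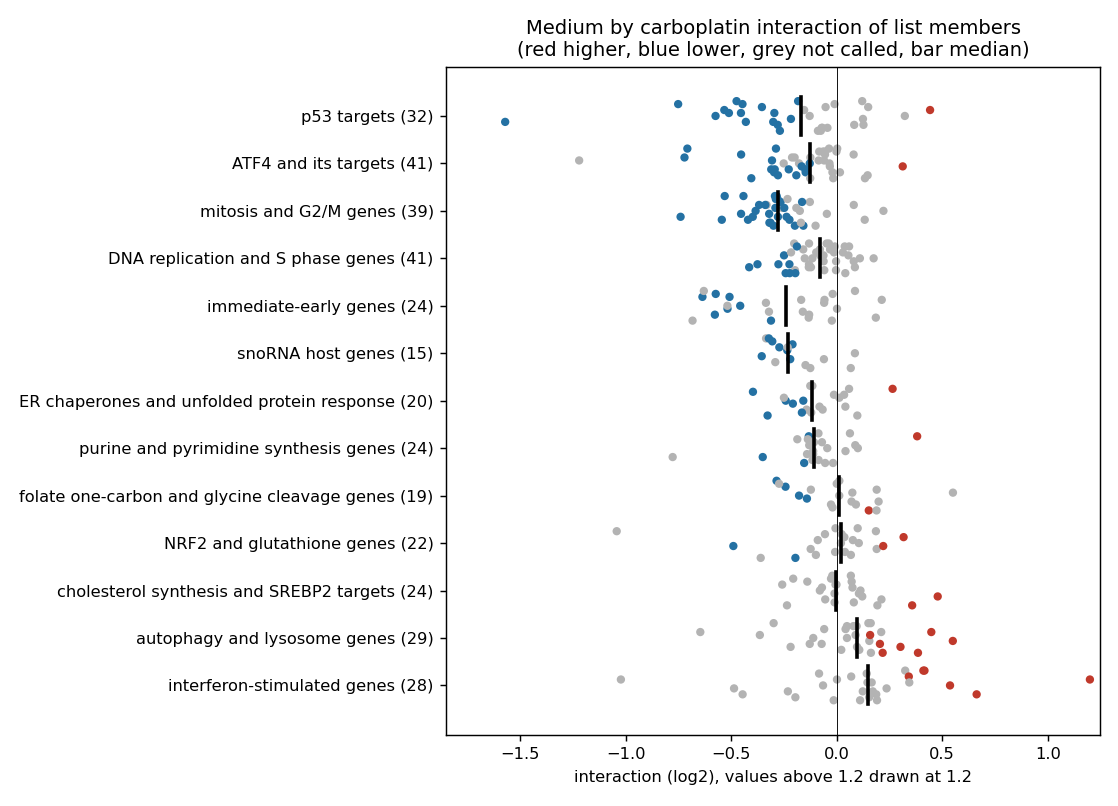
Interaction on the log2 scale of each tested member of 13 lists, with the number tested in parentheses, coloured by call, and with a bar at the list median. Called members of the p53, ATF4, G2/M, replication, immediate-early and snoRNA host lists lie almost all on the negative side, and those of the lysosome and interferon lists on the positive side.

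Interferon-stimulated genes and lysosome genes had higher calls and no lower ones. Of 28 interferon-stimulated genes 6 were higher, with a median of 0.15 and 5.91% of all genes called higher, and 4 were higher without libraries 23 and 24. Carboplatin raised 12 of them in the deprived medium and 2 in complete medium, beside 13.6% and 6.0% of all genes. OAS3, a sensor of double-stranded RNA, was at 24.4, 26.6 and 25 CPM in cis, 19.6, 22.04 and 19.5 in cis carbo, 17.2, 17.8 and 16.2 in cis -SG, and 19.5, 18.97 and 20.8 in cis -SG carbo. It fell with the drug in complete medium and rose in the deprived one, with an interaction of 0.54 (standard error 0.0997, edgeR adjusted p = 0.000569, and 0.00557 without libraries 23 and 24). IRF7, an interferon regulatory factor, had the largest value, 2.75, from 1 to 7 counts per library in cis -SG and 14 to 23 in cis -SG carbo, and was not called without those libraries (edgeR adjusted p = 0.052). IFI6 (0.66) and STAT2 (0.42) were also called, and neither was without them (edgeR adjusted p = 0.148 and 0.111).

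Of 29 autophagy and lysosome genes, 7 were higher and none lower, with a median of 0.09, and the counts were the same without libraries 23 and 24. Leaving out 1 library gave 3 to 6 higher members, with 3 without library 18 and 4 without any one of libraries 13, 15, 16, 17, 19, 20, 21, 22 and 24. NPC2, which carries cholesterol out of the lysosome, was at 29.5, 28.5 and 27.3 CPM in cis, 27.2, 24.4 and 23.02 in cis carbo, 17.5, 19.6 and 19.2 in cis -SG, and 26.4, 22.9 and 22.9 in cis -SG carbo. It rose with carboplatin in the deprived medium, where the groups did not overlap, and its response in complete medium did not pass the test (log2 -0.19). Its interaction was 0.55 (standard error 0.103, edgeR adjusted p = 0.000586). CTSB, a lysosomal protease, had 0.30, ATG2A, a lipid transfer protein of autophagosomes, had 0.39, and RRAGD, a GTPase that brings mTORC1 to lysosomes, had 0.45, the last not called without libraries 23 and 24 (edgeR adjusted p = 0.289). Of 24 cholesterol synthesis genes 2 were higher, beside 5.91% of all genes. The list median was -0.003, and 0.02 without libraries 23 and 24. LSS, lanosterol synthase, was at 77.1 to 81.5 CPM in cis, 55.4 to 57.6 in cis carbo, 33.5 to 34.5 in cis -SG and 31.7 to 34.7 in cis -SG carbo. It fell with carboplatin in complete medium alone, and its interaction was 0.48 (edgeR adjusted p = 1.85e-05). STARD4, a cholesterol transfer protein, rose in both media and had 0.36. Among 22 NRF2 and glutathione genes, the quinone reductase NQO1 (0.32) and the thioredoxin reductase TXNRD1 (0.22) were higher, and the haem oxygenase HMOX1 (-0.49) and NFE2L2 itself (-0.20) lower. These were 2 calls in each direction, beside 5.91% and 6.17% of all genes.

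The serine pathway showed no call for the interaction in cis cells. PHGDH (chromosome 1, 120191034 to 120286841), the first enzyme of serine synthesis, was at 153.0, 151.6 and 159.7 CPM in cis, 134.8, 128.1 and 135.1 in cis carbo, 204.3, 209.1 and 211.9 in cis -SG, and 178.1, 168.5 and 171.9 in cis -SG carbo. It fell with carboplatin by a similar proportion in both media, to 0.858 and 0.829, and the observed combination was 0.967 of the additive expectation. Its interaction was -0.05 (standard error 0.0474, edgeR adjusted p = 0.569). PSAT1 had -0.08 (edgeR adjusted p = 0.21) and PSPH -0.16 (edgeR adjusted p = 0.0552), the latter from 84.2 to 86.9 CPM in cis carbo and 94.6 to 105.8 in cis -SG carbo. The transporters SLC1A4 and SLC1A5 had 0.02 and -0.08, and the ATF4 transcript itself -0.06 (edgeR adjusted p = 0.894, 0.292 and 0.433). Of 19 folate and glycine cleavage genes 4 were lower and 1 higher. MTRR, which reactivates methionine synthase, had -0.29, the mitochondrial formate enzyme MTHFD1L -0.24, the folate carrier SLC25A32 -0.18 and the formyl-folate dehydrogenase ALDH1L2 0.15, the last 2 not called without libraries 23 and 24 (edgeR adjusted p = 0.102 and 0.0972). Of 24 purine and pyrimidine synthesis genes 3 were lower and 1 higher. CTPS1, CTP synthase, rose with carboplatin in complete medium, from 236.2 to 247.3 CPM in cis to 254.8 to 261.0 in cis carbo. It fell in the deprived medium, from 257.7 to 261.6 in cis -SG to 210.9 to 221.0 in cis -SG carbo, and had an interaction of -0.35 (edgeR adjusted p = 2.85e-06). Its paralog CTPS2 had 0.38, and was not called without libraries 23 and 24 (edgeR adjusted p = 0.303). Of 28 NAD and PARP genes 3 were lower and 1 higher, beside 6.17% and 5.91% of all genes. The NAD synthesis gene NMNAT2 had -0.66 (edgeR adjusted p = 0.000517) and rose by 4.10 on the log2 scale with deprivation alone.

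Among called genes that averaged 50 counts or more, GPR84, a receptor for medium-chain fatty acids, had the most negative interaction, -1.97 (standard error 0.191, edgeR adjusted p = 1.05e-07). It was at 2.42, 1.75 and 2.397 CPM in cis, 3.42, 3.74 and 3.13 in cis carbo, 20.4, 22.8 and 22.5 in cis -SG, and 9.17, 8.99 and 8.04 in cis -SG carbo. Carboplatin raised it in one medium and lowered it in the other, with no overlap. KANK4, a scaffold of the actin cortex, had -1.14, with 24.6 to 25.7 CPM in cis -SG and 20.4 to 22.8 in cis -SG carbo against an expected 48.5. PITPNM3 had -1.15, from 42.4 to 50.7 CPM in cis -SG to 20.9 to 23.95 in cis -SG carbo. In complete medium it was at 1.48 to 1.66 CPM in cis and 1.34 to 2.12 in cis carbo, on 19 to 36 counts per library. Its log2 response there was 0.10 (standard error 0.234), and it overlaps PIMREG on the other strand. The hypoxia factor gene EPAS1 (-1.21) and COLEC12 (-0.98) rested on 6 and 4 to 19 counts per library in cis, and neither was called without libraries 23 and 24 (edgeR adjusted p = 0.0765 and 0.0916). The remaining lower genes of the 10 were GDF15, DLGAP1 (-0.95), ROCK1P1 (-0.94), P2RX6 (-0.93) and LAG3 (-0.90), of which ROCK1P1 is a pseudogene whose reads may belong to ROCK1.

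On the positive side stood AHNAK, a giant scaffold protein gene, with an interaction of 1.55 (standard error 0.242, edgeR adjusted p = 0.00425). It was at 152.4, 167.0 and 156.2 CPM in cis, 136.8, 191.2 and 149.6 in cis carbo, 160.0, 133.7 and 122.5 in cis -SG, and 325.6, 462.1 and 428.3 in cis -SG carbo. The first 3 groups overlapped, and the combination alone was higher, most so in libraries 23 and 24. Without them its interaction was 1.22 (edgeR adjusted p = 0.0337). RNF213, a giant ubiquitin ligase gene, had 1.24, with 164.1 CPM in library 22 and 235.4 and 216.9 in libraries 23 and 24, and was not called without them (edgeR adjusted p = 0.126). UTRN, the utrophin gene, fell from 8.65 to 9.44 CPM in cis to 5.50 to 5.83 in cis carbo and rose from 5.65 to 6.03 in cis -SG to 7.99 to 9.48 in cis -SG carbo. Its interaction was 1.23 (edgeR adjusted p = 4.14e-06, and 4.05e-05 without libraries 23 and 24). ABCA1, the cholesterol efflux pump, was at 3.82 to 4.28 CPM in cis, 3.84 to 4.67 in cis carbo, 7.50 to 9.94 in cis -SG and 17.7, 20.6 and 20.6 in cis -SG carbo, with an interaction of 1.12 (edgeR adjusted p = 0.000109). CSRNP3, a nuclear protein gene, had 1.22 and was called with and without both libraries, as was FGD6 (1.28), a Cdc42 exchange factor gene. DNAJB5 (1.04) was also called in both fits, while FAXDC2 (1.05), MIR600HG (1.17) and ALMS1-IT1 (1.2) were not called without them. MIR600HG overlaps STRBP and ALMS1-IT1 overlaps ALMS1, each on the same strand.

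The interaction moved with exon length, here the union of all annotated exons of a gene in GENCODE v44. This union can be longer than any single transcript, and the counts were made on v19. The median exon length was 9545 bases for genes called higher, 4783 for genes called lower and 5018.5 for all genes tested. Genes were split by exon length into 5 bins of like size. In the bin with the longest exons, at least 8707 bases, 16.4% were called higher and 3.81% lower, and in the shortest bin, up to 2547 bases, 1.49% and 4.02%. Without libraries 23 and 24 the longest bin had 9.003% higher and 4.33% lower. Spearman's rho between exon length and interaction across genes was 0.12, and 0.11 without both libraries. Removing the trend over length left 1699 calls, 670 higher and 1029 lower. The p53 and ATF4 lists then had 16 and 15 lower members, the G2/M list 26, and the interferon and lysosome lists 5 and 6 higher ones. The part of length and of the share of counts on no feature in the higher calls was not tested further.

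**Figure D5:**
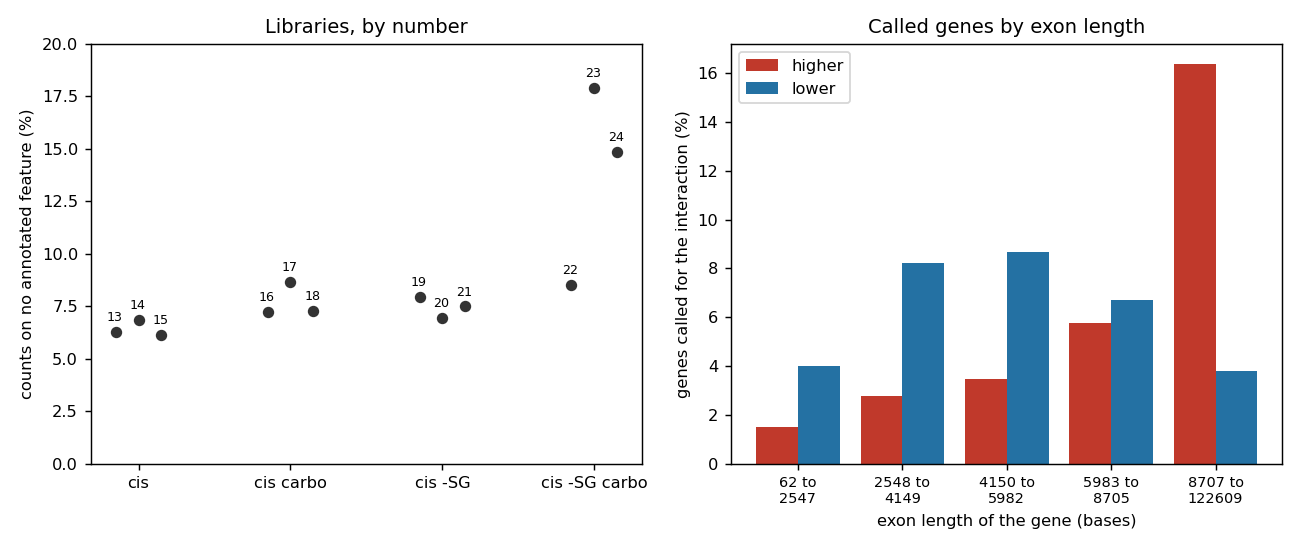
Left, percent of counts on no annotated feature in the 12 libraries, labelled by number: libraries 23 and 24 were at 17.9% and 14.9%. Right, percent of genes called higher (red) or lower (blue) for the interaction in 5 bins of exon length, with 16.4% called higher among the longest.

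Other lists held few calls. None was called among 12 BCL2 family genes, whose most abundant members MCL1 and BCL2L2 had -0.11 and -0.16 (edgeR adjusted p = 0.0752 and 0.0716). None was called among 13 mitochondrially encoded mRNAs, although all values were below 0 with a median of -0.82. Mitochondrial counts were 2.996% to 5.29% of the total in the cis carbo libraries, and their part in these values was not tested. Of 83 cytosolic ribosomal protein genes 5 were lower, beside 6.17% of all genes, and the median was -0.03. The L22 paralog RPL22L1 led them at -0.48 (edgeR adjusted p = 1.25e-05). Of 17 hypoxia targets 3 were lower, the glucose transporter SLC2A3 (-0.37), VEGFA (-0.36) and the glycolytic regulator PFKFB3 (-0.21), the last not called without libraries 23 and 24 (edgeR adjusted p = 0.134). Among TGF-beta and matrix genes, COL5A1 (0.62) and COL3A1 (0.15) were higher, and COL5A1 was not called without libraries 23 and 24 (edgeR adjusted p = 0.127). Of 10 heat shock genes HSPA4L was higher (0.38) and HSPD1 lower (-0.12), of 13 fatty acid synthesis genes SCD was lower (-0.16), and of 5 nuclear long noncoding RNAs OIP5-AS1 was higher (0.26). OIP5-AS1 was not called once the trend over length was removed (0.07, edgeR adjusted p = 0.383), and the median of its list was 0.64 with and 0.06 without libraries 23 and 24. HSPD1 and SCD were not called without libraries 23 and 24 (edgeR adjusted p = 0.138 and 0.231).

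The same interaction was computed in wt cells, and the difference between cis and wt cells was tested over their 24 libraries. It was called for 3804 of 16406 genes, 1749 (10.7%) with a higher and 2055 (12.5%) with a lower interaction in cis cells. Among G2/M genes 23 of 39 were lower in cis cells and none higher, with a median interaction of -0.28 in cis and 0.13 in wt cells. Among replication genes 32 of 41 were lower and none higher, with -0.08 in cis and 0.39 in wt cells. RRM2 had the difference of -1.28 (standard error 0.0642, edgeR adjusted p = 5.07e-15), with -0.42 in cis and 0.86 in wt cells. Immediate-early genes were lower for 14 of 24 and higher for none, with EGR2 at -0.58 in cis and 1.62 in wt cells. ATF4 and its targets went the other way, with 20 of 41 higher in cis cells and 3 lower, and medians of -0.13 and -0.35. The transporter SLC1A4 had a difference of 0.96 (standard error 0.104, edgeR adjusted p = 6.6e-08), from 0.01 in cis and -0.94 in wt cells. SLC1A5 had 0.21 (edgeR adjusted p = 0.0399). Of the 3 serine synthesis enzymes 2 were higher in cis cells, beside 10.7% of all genes. PHGDH differed by 0.23 and PSAT1 by 0.26 (edgeR adjusted p = 0.0383 and 0.00333), with -0.28 and -0.34 in wt cells. PSPH was not called, at -0.02 (edgeR adjusted p = 0.927). The p53 targets differed for 12 of 33, 3 higher and 9 lower, with medians of -0.16 in cis and -0.11 in wt cells. CDKN1A was among them, with an interaction of -0.75 in cis and 0.11 in wt cells and a difference of -0.86 (edgeR adjusted p = 3.96e-09). Against cis SSP cells 8 of 15376 genes (0.052%) differed. In these cells libraries 25 and 32 stood apart, and leaving them out raised the number to 1867, so the small number is not a measure of likeness. INHBE, an activin subunit gene induced by ATF4, differed most, by 1.58 (standard error 0.172, edgeR adjusted p = 0.000295), with an interaction of -0.17 in cis and -1.75 in cis SSP cells.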

How the data were processed

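The authors deposited raw counts of 57820 genes, made with HTSeq on GENCODE v19 exons from single reads that STAR had placed on GRCh37.p13. Strand setting and treatment of reads with several alignments are not given in the sources used here. The table has 3 rows that name no gene, which entered no fit. In cis libraries, 6.14% to 17.9% of counts fell on no feature. GENCODE v44 mapped to GRCh37 gave symbols to 55538 identifiers, and exon lengths and overlaps.

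Groups came from the labels. Counts of the 12 cis libraries were fitted in edgeR 4.0.16 (R 4.3.3) with TMM, filterByExpr, and robust quasi-likelihood tests, and p-values were adjusted by the Benjamini-Hochberg method over all genes tested. DESeq2 1.42.0 was an alternative. Standard errors are the log2 value divided by the square root of F. CPM were scaled by TMM over these 12 libraries, and the additive expectation is the cis carbo mean times the cis -SG mean over the cis mean. Interaction differences were fitted over 24 libraries. The mean chi-square of pairs of libraries of a condition was 1.69 to 9.36 in cis cells, so none was treated as a repeat deposit. On simulated counts of 14476 genes the interaction test recovered 27, 44, 49 and 50 of 50 genes changed 1.25-, 1.5-, 2- and 4-fold. Of its 179 calls there, 9 were false. The measured counts gave 1787 calls, far more than the simulated ones. The share of false calls therefore holds for the simulated counts and is not an error rate for the measured libraries.

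Named genes are the serine synthesis enzymes, SLC1A4, SLC1A5 and ATF4; the 10 most positive and 10 most negative called genes with 50 or more counts on average and 1 sign in every fit that left out a library and without libraries 23 and 24; at most 4 called genes per list, or the 2 most abundant; and at most 3 per direction for each interaction difference. Members and lists were chosen with earlier results of these data known. Python 3.11.15, pandas 2.3.3 and matplotlib 3.10.9 made the summaries and plots. A result of the TGF-beta and matrix list is not reported here.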

Additional observations from a re-analysis of the deposited data

Results flagged for a closer look

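Interactions differed between cell lines, as tested by the difference of the interactions in one fit. Between cis and wt cells 3804 genes differed. The largest differences among genes with a symbol and a mean of at least 50 counts included genes near 0 counts in one line, whose fitted values depend on the prior count and are no bound. GALNT18 (-4.68) had 0 to 4 counts per wt library, and KLHL14 (4.69), SLC34A2 (6.02) and UNC5C (6.05) had at most 7 counts in any cis library. In the fit over 24 libraries the standard errors of these 4 were, in that order, 1.18, 1.49, 2.2 and 1.95. Without libraries 23 and 24 the values were, in that order, -4.50, 5.14, 5.13 and 2.53. These are sizes alone and do not say whether a call was kept. IL32 (-4.0) had 2 counts in every cis and cis carbo library, 23 to 34 in cis -SG and 8 to 17 in cis -SG carbo, against 2222 to 3646 in wt libraries with carboplatin. EGR4 (-3.15), an immediate-early gene, had 10 to 152 counts in cis libraries and 2 to 4 in wt -SG.

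Between cis and cis SSP cells 8 genes differed, with 1001 at an unadjusted p under 0.05. INHBE (1.58), ASPH (0.70) and STC2 (0.69) were higher in cis cells, and ZNF331 (-1.11) and FOSB (-1.03) lower. INHBE and STC2 alone were called without libraries 23 and 24.

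The share of counts on no feature, outside the measurement of genes, was above the highest cis library (6.84%) in each library of the other conditions, with means of 7.73% in cis carbo, 7.46% in cis -SG and 13.8% in cis -SG carbo.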

How the results depend on the processing

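With 1787 genes called for the interaction, the fit over the 36 libraries gave 112, an absolute log2 value of at least 1 gave 69, and leaving out 1 library gave 1334 to 3594, the highest without library 22. The other alternatives gave 1269 to 1853, DESeq2 1333 among them. Total counts without TMM called 1131 higher and 679 lower, against 874 and 913, and moved the median of all genes to 0.04. In the same order, the carboplatin response in complete medium (2211 genes) came to 401, 53 and 1199 to 2752, and the lower numbers came without libraries 13 (1339), 17 (1442) and 18 (1199). The response without serine and glycine (4071) came to 1141, 334 and 3125 to 6060, to 1925 without libraries 23 and 24, to 1742 with the share of counts on no feature as covariate and to 1927 without both libraries and the length trend. The deprivation response (10565) moved past 1.5 times only for an absolute log2 value of at least 1, to 2411, and was 9902 to 10945 with 1 library left out. The difference between cis and wt cells (3804) came to 825, 560 and 3334 to 4175. It fell below that last range without libraries 23 and 24. That between cis and cis SSP cells (8) came to 48, 3 and 1 to 5, to 97 with DESeq2, 13 with total counts, 2 without libraries 23 and 24 and 1867 without libraries 25 and 32. Of the fit over 36 libraries and of 1 library standing for a condition the spread is assumed to be that of the other libraries. The cause of these moves was not tested.

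In the fit over the 36 libraries, 4 p53 targets, 5 ATF4 targets, 6 G2/M genes and 5 immediate-early genes were lower, and no snoRNA host, interferon or lysosome gene was called. DESeq2 called 15, 16, 24 and 8 of the first 4 lists lower, and 3 interferon and 4 lysosome genes higher. No named gene changed sign while called. In 2494 repeats of single genes, 317 lost the call and 27 gained it. The trend over length removed together with libraries 23 and 24 was added after seeing the data. No paired analysis was possible because libraries are numbered 1 to 36 in the labels and no number recurs between conditions. With technical replicates, these tests do not cover variation between cultures.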
